A study of Mus musculus with 7 samples.

Results

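The regions described here are stretches of chromatin that were more accessible in interferon-gamma-expressing (IFNγ+) CD4+ T cells of the lung than in any library of IL-4-expressing (IL-4+) cells. They number 1182 of the 113820 regions measured. They were chosen by the measured values themselves: the lower of the 2 lung IFNγ+ libraries had to exceed the highest of the 5 IL-4+ libraries by at least 1 on the log2 scale (2-fold), and the mean of the 2 lung IFNγ+ libraries had to reach 2.32 on that scale, a density of 5. Density is the number of transposase insertions per kilobase of region, normalized to the library. The excess of the lower IFNγ+ library over the highest IL-4+ library is called the gap below. Because the gap chose the regions, differences between IFNγ+ and IL-4+ cells are given as descriptions without a test.

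The assay for transposase-accessible chromatin (ATAC-seq) counts the places where a transposase could insert adapters into open DNA. The 7 libraries held 50000 sorted cells each, taken from infected C57BL/6 mice on day 8 after 500 L3 larvae of Nippostrongylus brasiliensis. IL-4+ cells were GFP+ cells of the IL-4-4get reporter line, 2 libraries from the lung-draining mediastinal lymph node (LN) and 3 from the lung. IFNγ+ cells were YFP+ cells of the IFN-gamma-Great reporter line, 2 libraries from the lung. All were gated as live CD3ε+ CD4+ cells without CD8, B220, NK1.1, Ter119, CD11b or CD11c. The reporter marks cells that have transcribed the cytokine locus, the mice were 2 to 3 per population in a single experiment, and the reporter line cannot be told apart from the cytokine between IFNγ+ and IL-4+ cells. IFNγ+ cells from the LN were not analysed here, so tissue was compared only within IL-4+ cells. In bulk libraries, a region open in fewer cells and one less open in each cell cannot be told apart.

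IFNγ is the defining cytokine of T helper 1 (Th1) cells, the arm of CD4+ immunity directed at intracellular microbes, whereas worms such as N. brasiliensis mainly draw T helper 2 cells that make IL-4, IL-5 and IL-13. In Th1 cells the T-box factor T-bet, encoded by Tbx21, and the Runt-domain factor Runx3 bind enhancers and promoters at Ifng and at genes for chemokine receptors, cytokine receptors and cytotoxic proteins. T-bet recognizes a T-box motif, and Runx proteins recognize a short A-rich motif.

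The following 7 regions are shown as sequence because they lie at genes of the Th1 program or carry the motifs on which the later comparison turns. They were picked after their values were seen. Each line gives 180 bases of the plus strand, 5′ to 3′, read from the RefSeq sequence of GRCm38.p6, which is the mm10 build of the deposited table. Capitals mark matches on either strand to the T-box motif AGGTGTGA, to its core GGTGTG and to the Runx motif AACCACA.
Ifng upstream (chr10:118435589-118435768): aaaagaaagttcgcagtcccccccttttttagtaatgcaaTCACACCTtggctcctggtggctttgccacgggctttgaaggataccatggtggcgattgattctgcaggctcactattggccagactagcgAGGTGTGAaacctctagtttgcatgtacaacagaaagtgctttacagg
Ifng promoter (chr10:118440693-118440872): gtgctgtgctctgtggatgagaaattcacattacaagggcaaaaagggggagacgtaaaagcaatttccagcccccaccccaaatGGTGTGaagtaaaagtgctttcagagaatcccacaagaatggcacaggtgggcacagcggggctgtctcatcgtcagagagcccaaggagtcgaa
Cxcr3 upstream (chrX:101737322-101737501): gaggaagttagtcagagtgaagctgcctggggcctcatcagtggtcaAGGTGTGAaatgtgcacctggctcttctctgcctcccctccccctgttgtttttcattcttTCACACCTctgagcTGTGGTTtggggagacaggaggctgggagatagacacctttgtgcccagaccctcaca
Ccl4 promoter (chr11:83662186-83662365): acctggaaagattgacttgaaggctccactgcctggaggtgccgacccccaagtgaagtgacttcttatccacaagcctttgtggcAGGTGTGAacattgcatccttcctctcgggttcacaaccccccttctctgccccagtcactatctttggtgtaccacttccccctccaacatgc
Samd3 promoter (chr10:26229606-26229785): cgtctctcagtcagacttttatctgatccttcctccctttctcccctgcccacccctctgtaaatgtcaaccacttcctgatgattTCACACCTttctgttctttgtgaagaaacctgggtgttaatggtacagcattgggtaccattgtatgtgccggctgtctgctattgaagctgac
Klrc1 upstream (chr6:129680486-129680665): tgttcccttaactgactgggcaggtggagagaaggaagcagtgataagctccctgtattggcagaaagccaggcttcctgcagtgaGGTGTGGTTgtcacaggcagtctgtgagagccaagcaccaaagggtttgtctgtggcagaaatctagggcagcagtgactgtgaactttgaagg
Serpinb2 intron (chr1:107533896-107534075): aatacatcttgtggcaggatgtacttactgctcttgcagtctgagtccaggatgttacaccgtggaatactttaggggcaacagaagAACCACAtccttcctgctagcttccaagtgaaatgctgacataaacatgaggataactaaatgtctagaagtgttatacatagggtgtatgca
The stretches upstream of Ifng and Cxcr3 each hold 2 full T-box motifs, and the Cxcr3 stretch also holds a Runx motif on the minus strand. The Samd3 and Ccl4 promoters hold 1 T-box motif each. The Ifng promoter stretch holds only the shorter core, the Klrc1 stretch holds a core that overlaps a Runx motif, and the Serpinb2 stretch holds a Runx motif alone.

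Across the 1182 regions, the median log2 density was 3.74 and 3.64 in lung IFNγ+ replicates 1 and 2. It was 1.80, 1.66 and 1.53 in lung IL-4+ replicates 1 to 3 and 1.18 and 1.36 in LN IL-4+ replicates 1 and 2. The 2 IFNγ+ libraries lay close to each other at these regions, with a median difference of 0.16 on the log2 scale. The median over all 113820 regions was between 2.08 and 2.22 in every library, so these regions lay above the typical region in IFNγ+ cells and below it in IL-4+ cells. The gap had a median of 1.35 and ranged from 1.00 to 6.28. The highest value belongs to a region with 0 rebuilt insertions in every IL-4+ library and depends on how a count of 0 was scaled. The next was 4.15. The gap reached 3-fold at 347 regions, 4-fold at 130 and 8-fold at 4. The median region held 356 and 579 rebuilt insertions in the IFNγ+ libraries and between 38 and 62 in the IL-4+ libraries, where a rebuilt count is the lowest insertion count that the ties in the table allow.

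The regions were not all closed in IL-4+ cells. A mean density of at least 5, the level used for an accessible region, was also reached in lung IL-4+ cells at 337 of the 1182 regions and in LN IL-4+ cells at 207. Together, 362 regions (30.6%) were accessible in at least 1 IL-4+ population and differed in amount, while 820 (69.4%) were below this level in both. For this reason they are called IFNγ+-high regions from here on. The IL-4+ library that set the gap was most often lung IL-4+ replicate 1, which was highest at 425 regions (36.0%), followed by lung IL-4+ replicate 2 at 266, LN IL-4+ replicate 2 at 195, lung IL-4+ replicate 3 at 192 and LN IL-4+ replicate 1 at 104.

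By how widely log2 rebuilt counts spread over all regions, both IFNγ+ libraries, LN replicate 2 and the first lung IL-4+ replicate were wide, and the others narrow. Rebuilt totals were between 14005923 insertions in lung IL-4+ replicate 3 and 91681969 in lung IFNγ+ replicate 2. Each IFNγ+-high region therefore exceeded IL-4+ libraries of both classes. If only the wide-class IL-4+ libraries had set the gap, 1947 regions would have been chosen, and if only the narrow-class ones had, 3137, choices made after the data were seen. Leaving out the first lung IL-4+ replicate gave 1797, and leaving out the second IFNγ+ replicate gave 1720. Starts of T cell identity genes were open in all 3 populations, with summed densities over 7 genes of 116 to 157 in LN IL-4+ cells, 118 to 167 in lung IL-4+ cells and 108 to 109 in lung IFNγ+ cells.

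The regions just inside the threshold lay nearest to Slco3a1, Clic5 and Amotl1, each with a gap of 1.00. The regions just outside it lay nearest to Slc38a11, Cdc42ep3 and Rbm5, each also with a gap of 1.00 after rounding. No natural break separated the 2 sides.

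At Ifng itself, 11 IFNγ+-high regions had this gene as their nearest, the most of any gene, out of 50 regions nearest to it. They reached from 36.4 kb upstream of the start to 116 kb downstream. The strongest gap was at a region 5.45 kb upstream (chr10:118435290-118435904, intergenic), whose sequence with 2 T-box motifs is printed above. Its log2 density was 4.89 and 4.69 in the lung IFNγ+ libraries, 1.24, 2.35 and 1.55 in lung IL-4+ replicates 1 to 3 and 1.00 and 1.43 in the LN IL-4+ libraries. Both IFNγ+ libraries were thus well above all IL-4+ libraries, and the lung and LN IL-4+ libraries overlapped.

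The promoter of Ifng behaved differently within IL-4+ cells (chr10:118440693-118441133). Its log2 density was 5.60 and 5.69 in the IFNγ+ libraries, 3.81, 4.02 and 3.50 in the lung IL-4+ libraries and 0.53 and 1.34 in the LN IL-4+ libraries. The 3 populations did not overlap at this region, and lung IL-4+ cells stood between the others. A second region at the start, centred 0.868 kb downstream (chr10:118441384-118442444), had 3.46 and 3.43 in the IFNγ+ libraries and between 1.01 and 2.26 in the IL-4+ libraries of either tissue, which overlapped.

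Farther out, a region 28.1 kb downstream of the Ifng start (chr10:118468854-118469453) had log2 densities of 4.79 and 4.47 in IFNγ+ cells, 1.91, 2.48 and 1.53 in lung IL-4+ cells and 2.64 and 2.71 in LN IL-4+ cells. Here the LN IL-4+ libraries were the higher ones among the IL-4+ libraries. The 3 most distant regions, 100 kb, 109 kb and 116 kb downstream, had mean levels of 2.94, 3.47 and 2.83 in IFNγ+ cells. Their highest IL-4+ library was at 1.37, 1.25 and 1.48. The plot of the locus shows that regions without the gap lay between these. Most of those downstream of the start still had their highest mean in IFNγ+ cells, by less than the rule asks of every library.

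**Figure D1:**
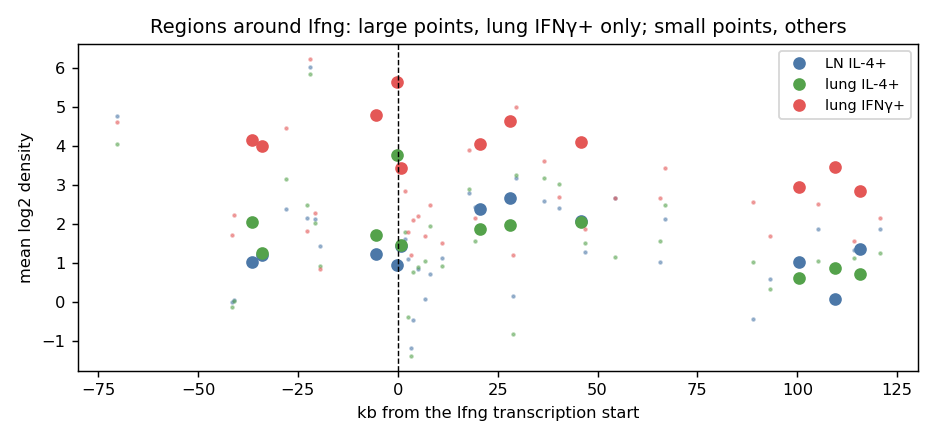
Mean log2 density (vertical axis) of each region around Ifng against its distance in kb from the transcription start (dashed line), with each population in its own colour. Large points are the 11 IFNγ+-high regions and small points all other regions. At the promoter the lung IL-4+ mean of 3.78 stands between 5.64 in IFNγ+ and 0.94 in LN IL-4+ cells.

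The next locus was Il12rb2, the signalling chain of the receptor for IL-12, the cytokine that drives Th1 differentiation. It was nearest to 10 IFNγ+-high regions of 24, between 55.8 kb upstream and 8.86 kb downstream of a start. The region 8.86 kb inside the gene (chr6:67367104-67367552, intron) had log2 densities of 4.29 and 4.03 in IFNγ+ cells, 1.58, 1.70 and 1.94 in lung IL-4+ cells and 0.30 and 0.67 in LN IL-4+ cells. The order was the reverse among IL-4+ cells 23.6 kb upstream (chr6:67399534-67400032, intergenic), where IFNγ+ cells had 5.67 in both libraries, lung IL-4+ cells 2.18, 1.63 and 2.31, and LN IL-4+ cells 3.33 and 3.48. The region with the highest level, in an intron (chr6:67347957-67348460), had 6.17 and 6.38 in IFNγ+ cells and was also accessible in every IL-4+ library, at 3.88 to 5.13. Upstream, 2 of the 10 lie in introns of Il23r, the neighbouring gene for the IL-23 receptor, and 4 of the 20 regions within 10 kb of Il23r were IFNγ+-high.

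Chemokine genes of the Th1 program held IFNγ+-high regions at their starts or a few kb away. Of the list of 8 cytokine and chemokine genes, Ifng, Ccl3, Ccl4, Ccl5 and Xcl1 had such a region in the gene or up to 10 kb from it, and the list held 10 among 51 regions (19.6%, beside 1.04% over all regions). At the promoter of Ccl4, a chemokine that attracts effector T cells and macrophages (chr11:83662174-83662600), log2 density was 3.84 and 3.46 in IFNγ+ cells, 0.86, 1.13 and 1.36 in lung IL-4+ cells and 1.69 and 0.97 in LN IL-4+ cells. At the promoter of Xcl1, the ligand of XCR1 on cross-presenting dendritic cells (chr1:164935591-164936139), it was 3.95 and 3.62, then 2.29, 1.45 and 0.77, then 0.96 and 0.50. The IL-4+ libraries of the 2 tissues overlapped at both promoters. Near Ccl3, the strongest region (chr11:83640131-83640606) had log2 densities of 5.01 and 4.65 in IFNγ+ cells, 2.42, 1.70 and 2.21 in lung IL-4+ cells and 1.81 and 1.37 in LN IL-4+ cells. At Tnf, Lta and Fasl no region met the rule. Near Tnf a region had a gap of 1.48 but too low a mean in IFNγ+ cells, and at Fasl, whose product kills Fas-bearing cells, the largest gap was 0.97.

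Among 16 genes for Th1-associated receptors, 6 held IFNγ+-high regions, 13 in all of 219 regions (5.94%). At Cxcr3, the receptor that guides Th1 cells to inflamed tissue, 3 of 8 regions met the rule. The one 3.15 kb upstream (chrX:101737145-101737698) had log2 densities of 4.86 and 4.76 in IFNγ+ cells, 2.56, 1.44 and 1.80 in lung IL-4+ cells and -0.53 and 1.36 in LN IL-4+ cells. The LN libraries lay far apart here and both were below all lung libraries.

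Cytotoxic effector genes held 6 IFNγ+-high regions of 53 (11.3%), at 4 of the 9 genes. The region 6.57 kb downstream of the start of Prf1, which encodes the pore-forming protein perforin (chr10:61306137-61306595), had log2 densities of 4.61 and 4.80 in IFNγ+ cells and between 2.33 and 2.56 in the 5 IL-4+ libraries. At the promoter of Gzmk, a granule protease (chr13:113180756-113181160), the IFNγ+ libraries were at 2.98 and 3.32 and the IL-4+ libraries between 0.14 and 0.97. At the promoter of Nkg7, a granule membrane protein (chr7:43436335-43437260), they were at 4.31 and 4.20, with lung IL-4+ cells at 2.53, 2.51 and 2.59 and LN IL-4+ cells at 1.67 and 0.53. IL-4+ libraries of both tissues overlapped at the Prf1 and Gzmk regions and did not at the Nkg7 promoter. Gzmb, Gzmc, Ctsw, Srgn and Serpinb9 had no IFNγ+-high region.

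The killer cell lectin-like receptor genes encode receptors of natural killer (NK) and effector T cells, and many of them lie close together on chromosome 6. They held several of the regions. In the stretch within 1 Mb of position 130 Mb, 20 of 141 regions (14.2%) were IFNγ+-high. Klrg1 and Klrb1b lie outside this stretch. The list of 7 receptors held 5 of 59 regions (8.47%). Klrc1, Klrd1, Klrk1 and Klre1 had such a region, and Klrg1, Klrb1b and Klrb1f had none. The region 3.81 kb upstream of Klrk1, the gene for NKG2D (chr6:129627442-129627910), had log2 densities of 4.04 and 3.79 in IFNγ+ cells, 1.07, 0.59 and -0.22 in lung IL-4+ cells and 0.76 and 0.88 in LN IL-4+ cells. The region 1.55 kb upstream of Klrc1, the gene for NKG2A (chr6:129680237-129680817), was high in IFNγ+ cells at 5.94 and 5.77 and accessible in IL-4+ cells at 2.48 to 4.05.

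Of the regions nearest to the Ly49 genes (Klra), 10 of 18 were IFNγ+-high, with mean levels in IFNγ+ cells of 2.61 to 4.04. These genes are near copies of each other, and reads with a low mapping quality had been removed, so values at single Klra regions are uncertain. Other cell types that carry these receptors were looked at by their own markers. Of the NK and innate list, Klrb1c and Klra8 held 3 IFNγ+-high regions of 10 (30%, beside 1.04% over all regions). Ncr1 had no region at all and Klra8 and Klra4 had none at their starts. The start of Klrb1c, which encodes NK1.1, was at a density of 7.66 and 5.49 in IFNγ+ cells, 1.15 to 3.98 in lung IL-4+ cells and 2.01 and 2.50 in LN IL-4+ cells, whereas NK1.1+ cells had been gated out. The part of NK cells in these regions was not tested.

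Of the other lists of cell types, Cd8a and Cd8b1 of CD8 T cells held 0 IFNγ+-high regions of 7, the start of Cd8b1 stood at a density of 3.94 and 4.09 in IFNγ+ cells, and Cd8a had no region at its start. The 4 B cell genes held 0 of 15, with no region at any of their starts. The 2 epithelial genes held 0 of 2 and the naive T cell genes 0 of 41. The myeloid list held 2 of 15 (13.3%), both near Itgam, the gene for CD11b. The Itgam start was at 7.77 and 5.39 in IFNγ+ cells and 0.898 to 2.89 in the IL-4+ libraries, while Lyz2 had no region. The summed density over the myeloid starts with a region (2 of 4 genes) was 21.8 to 22.7 in IFNγ+ cells, 16.2 to 19.1 in lung IL-4+ and 35.9 to 38.0 in LN IL-4+ cells. The part of myeloid cells in the Itgam regions was not tested. The regulatory T cell list held 2 of 80 (2.5%), at Ikzf2 and Il2ra. The Foxp3 start was at 27.2 and 28.0 in IFNγ+ cells and 28.4 to 35.6 in IL-4+ cells. The Th17 list held 5 of 50 (10%, beside 1.04% over all regions), of which 4 are the regions at Il23r beside Il12rb2. The NK and innate, myeloid and Th17 shares were above the 5.94% of the Th1-associated receptors, over fewer regions.

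**Figure D2:**
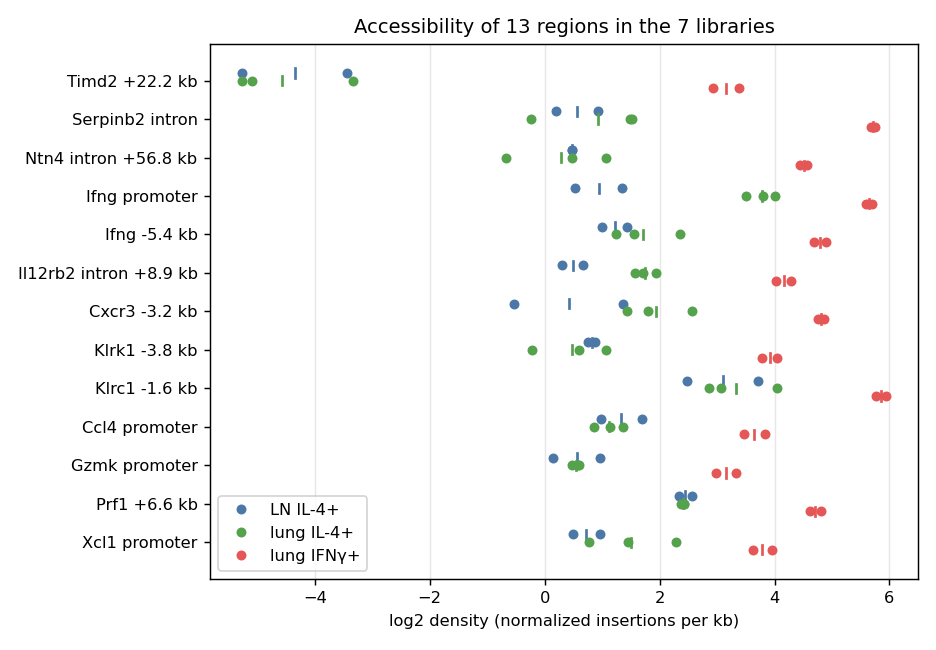
Log2 density (horizontal axis, normalized insertions per kb) of 13 regions named in the text in each of the 7 libraries, with a short line at the mean of each population (IFNγ+ 2 libraries, IL-4+ 3 from lung and 2 from LN). In every row both IFNγ+ points lie to the right of all IL-4+ points, as the rule requires. At the Ifng promoter the lung IL-4+ points, at 3.50 to 4.02, stand apart from the LN IL-4+ points.

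The list of 13 transcription factors linked to Th1 cells held IFNγ+-high regions at about the share over all regions. These were 2 of 196 regions (1.02%, beside 1.04% over all regions), at Zeb2 and Hopx. Within 10 kb of Tbx21 none of 8 regions met the rule, and the largest gap was 0.87. For Runx3 it was 0.12 over 27 regions, for Stat4 0.71 over 38 and for Eomes -0.19 over 5. Summed density at Tbx21 was 69.2 in lung IFNγ+, 47.2 in lung IL-4+ and 27.0 in LN IL-4+ cells, so that accessibility was higher in IFNγ+ cells there without a single region 2-fold above every IL-4+ library. At Runx3 the sum was highest in lung IL-4+ cells, at 266, compared with 213 in IFNγ+ and 157 in LN IL-4+ cells.

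The T cell identity list held 0 of 160, the T helper 2 list 0 of 153 and the follicular helper list 0 of 348. These counts reach only 10 kb from each gene. Farther out, an IFNγ+-high region lay 43.3 kb upstream of Il1rl1, a gene of the T helper 2 list (chr1:40385999-40386630). Its log2 density was 4.57 and 4.21 in IFNγ+ cells, 2.29, 2.49 and 2.81 in lung IL-4+ cells and 1.08 and 0.45 in LN IL-4+ cells. Interferon-stimulated genes held 1 of 83 (1.20%), within 10 kb of Igtp. The tissue residency list held 6 of 195 (3.08%, beside 1.04% over all regions), of which 5 lay at Itga1, the collagen-binding integrin chain CD49a. In an intron of Itga1 (chr13:115099233-115099633), the IFNγ+ libraries were at 3.56 and 3.59, the lung IL-4+ libraries at 1.12, 1.46 and 1.22 and the LN IL-4+ libraries at -0.31 and 1.05. The last residency region was at Rora. The list named the gene for Hobit by a symbol that the annotation does not use; under its mouse symbol Zfp683 a region 6.09 kb upstream (chr4:134047408-134048081) was IFNγ+-high, with 4.54 and 4.22 in IFNγ+ cells, 2.00, 2.75 and 2.54 in lung IL-4+ cells and 0.91 and 0.47 in LN IL-4+ cells.

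Beyond these lists, the genes nearest to most IFNγ+-high regions after Ifng and Il12rb2 were Cmklr1 with 8 of 18 regions, Arsb with 6 of 15, and Ntn4, Dmrta1, Galnt10, Slco3a1, Snx29 and Dennd4c with 5 each. Cmklr1 encodes a receptor for the chemoattractant chemerin, and its regions had median levels of 3.88 in IFNγ+, 1.92 in lung IL-4+ and 0.27 in LN IL-4+ cells. The strongest, in an exon (chr5:113612992-113613401), was at 4.24 and 3.95 in IFNγ+ cells, 1.03 to 1.64 in lung IL-4+ cells and -0.17 and -0.55 in LN IL-4+ cells. Dmrta1 is a neighbour by distance only, since its 5 regions lay 113 to 138 kb upstream. Across the genome, 268 of the 1182 regions (22.7%) had another one within 10 kb. No such share was worked out for other sets of regions, so whether this is unusual was not tested.

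The largest gap was at an intergenic region 22.2 kb from the start of Timd2 (chr11:46667946-46668431), where all 5 IL-4+ libraries had 0 rebuilt insertions and the IFNγ+ libraries had 168 and 429. Against a floor of 3 insertions in each IL-4+ library, the lower IFNγ+ library was at least 19.2-fold higher. This region lies 6.93 Mb from Il4 on the same chromosome.

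The next was an intron of Serpinb2, which encodes a protease inhibitor (chr1:107533702-107534123), with log2 densities of 5.75 and 5.68 in IFNγ+ cells, -0.23, 1.49 and 1.53 in lung IL-4+ cells and 0.20 and 0.93 in LN IL-4+ cells. On the same chromosome, a region nearest to Serpinb8 (chr1:108040854-108041569) had 4.42 and 4.35 in IFNγ+ cells and at most 0.94 in an IL-4+ library. In an intron of Ntn4, which encodes netrin-4 (chr10:93697496-93698258), the values were 4.44 and 4.57, then -0.68, 0.48 and 1.07, then 0.48 and 0.48. All 3 regions thus stood more than 8-fold above every IL-4+ library, with tissues overlapping. The remaining 6 of the 10 largest gaps lay nearest to Gm21887, Kcnj8, Vmn1r206, Car5b, Klf4 and Crot, with gaps of 2.77 to 2.88. Of these, the Kcnj8 region (chr6:142561138-142561581) had the highest level, at 6.11 and 6.16 in IFNγ+ cells and 2.21 to 3.24 in IL-4+ cells.

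Gm21887 and Car5b are on the X chromosome, which held 42 IFNγ+-high regions of 2181 (1.93%). Of these, 12 lay beyond 160 Mb. In an intron of Mid1 (chrX:169993389-169994392), log2 densities were 3.52 and 3.95 in IFNγ+ cells, -4.38, 1.30 and -1.17 in lung IL-4+ cells and 0.37 and -4.49 in LN IL-4+ cells. The range among the IL-4+ libraries was wider here than the gap of 2.22, and the lowest values were in the wide-class libraries. Without the X chromosome 1140 regions met the rule.

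The immunoglobulin heavy chain variable genes on chromosome 12 were a further stretch, with 14 of the 142 regions nearest to an Ighv gene (9.86%), all within 1 kb of a start. Their mean levels were 2.66 to 6.08 in IFNγ+ cells, 0.17 to 3.89 in lung IL-4+ and 0.32 to 2.99 in LN IL-4+ cells. The highest, at Ighv9-4 (chr12:114299753-114300196), had 6.20 and 5.95 in IFNγ+ cells, 4.21, 3.97 and 3.49 in lung IL-4+ cells and 1.12 and 2.66 in LN IL-4+ cells. Like the Ly49 genes, these are near copies of each other. B220+ cells had been gated out. The B cell list given above had only 15 regions, none of them at a gene start, and 0 were IFNγ+-high. The part of B cells in the Ighv regions was not tested.

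By position, the IFNγ+-high regions were mostly distal. Only 30 (2.54%) had their centre within 1 kb of a protein-coding transcription start, compared with 15.8% of all 113820 regions and 22.8% of the 66252 accessible ones. Introns held 521 (44.1%), space between genes 599 (50.7%) and exons 32 (2.71%), beside 45.1%, 34.9% and 4.11% over all regions. The median distance to a protein-coding start was 29.4 kb, beside 13.5 kb over all regions, and 223 (18.9%) lay more than 100 kb away, beside 11.1%. They held fewer CpG sites, with a mean of 4.20 in the central 401 bases beside 8.12, and were somewhat shorter, with a median of 458 bases beside 486.5. Regions chosen by the mirrored rule in other populations were distal too: 2.39% of the 877 regions higher in every LN IL-4+ library lay within 1 kb of a start, and 1.49% of the 134 higher in every lung IL-4+ library. A low share of promoters was therefore shared by the regions of every population chosen this way.

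The 2 motifs of Th1 factors were found more often in the IFNγ+-high regions. In the 401 bases around each centre, the T-box motif AGGTGTGA was present in 138 of 1182 (11.7%), beside 2.20% of all regions and 2.25% of accessible ones. The Runx motif AACCACA was present in 412 (34.9%), beside 13.6%. Either was present in 514 (43.5%), beside 15.5%, and both in 36 (3.05%), beside 0.318%. These are descriptions, since the regions were chosen by their values and a match to these letters is no proof of binding. No p is given.

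The ETS motif AGGAAGT was present in 353 (29.9%), beside 16.3%, and the composite GGATGTGGT of ETS and Runx sites in 69 (5.84%), beside 1.10%. The composite overlaps the reverse of the Runx motif by part of its letters. Most other motifs stood closer to the share over all regions, with STAT above it and NFAT, EGR and Tcf7 below. These were the bZIP motif TGANTCA in 17.2% beside 16.0%, the STAT motif TTCCNGGAA in 2.12% beside 1.47%, the KLF motif GGGNGTGG in 15.1% beside 14.5% and the IRF motif GAAANTGAA in 3.81% beside 3.97%. The E-box CAGGTG was in 26.4% beside 28.1%, the nuclear receptor motif AGGTCA in 24.5% beside 22.9%, and the EGR motif GCGTGGGNG in 0.846% beside 1.26%. The NFAT motif TGGAAAA was in 7.11% beside 9.58%, and within 100 bases of the centre in 2.54% beside 4.67%. The NF-κB motif GGAATTTCC was in 0.508% beside 0.454% and the Tcf7 motif ATCAAAG in 5.92% beside 7.13%. No region held the CTCF motif AGGGGGCGC, beside 1.01% of all regions. The median GC content of the windows was 45.1%, beside 47.1% over all regions.

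The GATA motif AGATAA, which the T helper 2 factor GATA3 recognizes, was in 18.4% of the IFNγ+-high regions, beside 19.8% of all regions. In the 134 regions higher in every lung IL-4+ library it was in 59.0%, where the T-box motif was in 0.746% and the Runx motif in 15.7%. In the 877 regions higher in every LN IL-4+ library, the T-box motif was in 1.60%, the Runx motif in 14.7% and the Tcf7 motif in 21.4%. The raised T-box and Runx shares were thus not seen in the regions that the same rule chose from IL-4+ cells.

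**Figure D3:**
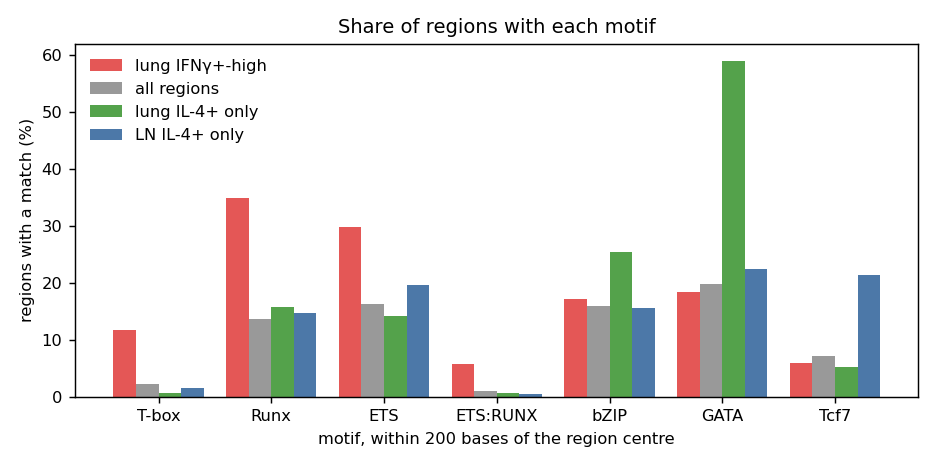
Percentage of regions (vertical axis) with at least 1 match to each motif within 200 bases of the region centre, for the 1182 IFNγ+-high regions, all 113820 regions, the 134 regions higher in every lung IL-4+ library and the 877 higher in every LN IL-4+ library. The IFNγ+-high bar is the tallest for T-box (11.7%), Runx (34.9%), ETS and ETS:RUNX, and the lung IL-4+ bar for GATA (59.0%).

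Matches also lay near the middle of the regions. Of the 153 T-box matches in the IFNγ+-high regions, 84 (54.9%) were within 50 bases of the centre, beside 29.2% of the 2578 matches over all regions. For Runx it was 225 of 485 (46.4%), beside 33.5%, and for GATA 68 of 236 (28.8%), beside 25.7%. A second T-box match was present in 12 regions, including those upstream of Ifng and Cxcr3 printed above.

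**Figure D4:**
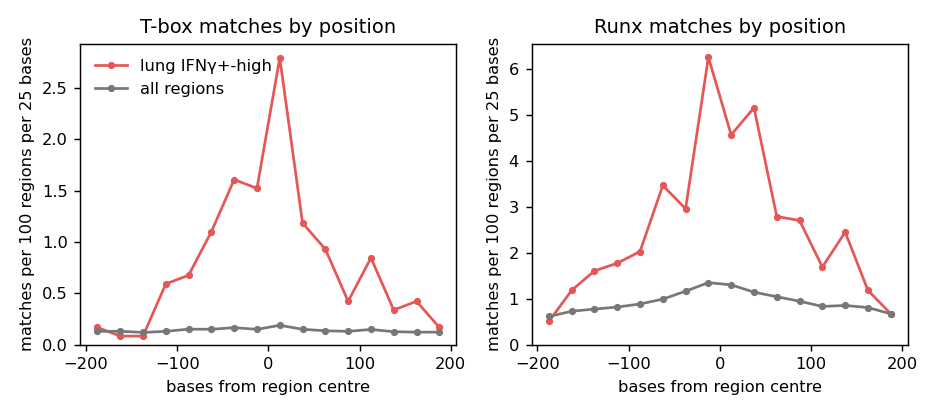
Matches per 100 regions in bins of 25 bases (vertical axis) against the distance in bases from the region centre, for the T-box motif (left) and the Runx motif (right), in the 1182 IFNγ+-high regions and in all 113820 regions. In the IFNγ+-high regions 54.9% of the T-box matches fall within 50 bases of the centre.

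The share with a T-box motif was higher at larger gaps, which is a description along the value that chose the regions. It was 9.54% of the 461 regions with a gap of 2 to 2.38-fold, 9.89% of 374 up to 3-fold, 14.7% of 217 up to 4-fold and 19.2% of 130 above 4-fold. The Runx share did not follow the gap, at 35.6%, 35.8%, 35.0% and 29.2% in the same order. The promoter of Samd3 (chr10:26229456-26229898), printed above, was among the regions with a large gap and a T-box motif. Its log2 densities were 5.23 and 5.04 in IFNγ+ cells, 2.28, 1.27 and 2.18 in lung IL-4+ cells and -0.45 and 1.40 in LN IL-4+ cells.

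The rule did not use the difference between IL-4+ cells of the 2 tissues, but it did use their values, since it capped each region by its highest IL-4+ library, which was more often one of the 3 lung libraries. The comparison of the tissues is therefore not independent of the choice of regions, and its p-values are those of the fit across all regions. limma, fitted to all 113820 regions and 7 libraries with Benjamini-Hochberg adjustment, called 34 of the 1182 regions higher in lung IL-4+ than in LN IL-4+ cells (2.88%), at an adjusted p below 0.05 and a change of at least 3-fold. Over all regions the same call was made at 1.05%. It called 0 higher in LN IL-4+ cells, beside 0.695% of all regions. Without adjustment for multiple testing (p below 0.05, 3-fold) the counts were 57 (2.13% of all regions) and 2 (1.88% of all regions). The count of 34 rests on the settings. A replicate block or a test against 3-fold called 0, a fit of these 2 populations alone 9 and a pseudocount of 1 called 11. For these settings, and for the fits without 1 library below, no share over all regions is given. Those changes therefore cannot be read as particular to the 1182 regions. A 2-fold minimum called 60, beside 1.77% of all regions. The labels do not tie libraries to single mice, so p-values measure the spread between these libraries, which may be technical. The median difference of lung minus LN over the 1182 regions was 0.35 on the log2 scale, beside -0.03 over all regions, and 843 of them (71.3%) had a higher mean in lung IL-4+ cells.

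The 34 called regions had lung IL-4+ levels between those of the other populations, with medians of 4.77 in IFNγ+ and 3.02 in lung IL-4+ cells and LN IL-4+ means from -1.01 to 2.63. All 3 lung IL-4+ libraries exceeded both LN IL-4+ libraries at each. This order is largely set by their having been called. Within the wide class (lung replicate 1 minus LN replicate 2) the median difference was 1.71 at the 34 and 0.38 over all 1182 regions. Within the narrow class (lung replicates 2 and 3 minus LN replicate 1) it was 1.98 and 0.36. The count fell to 3 when the second lung IL-4+ replicate was left out and was 73 when the second LN replicate was. Leaving out IFNγ+ replicate 1 or 2, which lend only their spread to this contrast, gave 12 and 11.

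The Ifng promoter had the largest difference, 2.84 on the log2 scale (SE 0.29, limma adjusted p = 0.00274), with the values per library given above. It was called in 16 of 19 other settings. The next was a region 7.03 kb upstream of Klri2, a lectin-like receptor gene in the chromosome 6 stretch (chr6:129747217-129747819). Its log2 density was 6.75 and 6.70 in IFNγ+ cells, 5.10, 4.68 and 3.96 in lung IL-4+ cells and 1.19 and 2.49 in LN IL-4+ cells. The lung IL-4+ libraries exceeded the LN ones by 2.74 (SE 0.39, limma adjusted p = 0.00747), and the region was called in 15 of 19 settings.

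A region 34.9 kb upstream of Dennd4c (chr4:86713412-86713959) had 5.89 and 5.77 in IFNγ+ cells, 4.52, 3.85 and 3.88 in lung IL-4+ cells and 1.17 and 2.38 in LN IL-4+ cells. The difference between IL-4+ tissues was 2.31 (SE 0.34, limma adjusted p = 0.00909). The other 4 regions nearest to Dennd4c were not called. The Trip4 region (intron, chr9:65881911-65882544) ranked above the Dennd4c region, with a difference of 2.62 (SE 0.57, limma adjusted p = 0.0391). The Dennd4a region (intergenic, chr9:64792793-64793587) had 2.31 (SE 0.45, limma adjusted p = 0.0254). The Trip4 and Dennd4a regions were called in 9 and 10 of 19 settings.

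Further called regions lay upstream of Zfp683 (difference 1.74, SE 0.34, limma adjusted p = 0.0257), upstream of Cmklr1 (2.02, SE 0.43, limma adjusted p = 0.036) and at a start of Xirp1 within Cx3cr1 (1.70, SE 0.37, limma adjusted p = 0.0394). The region 43.3 kb upstream of Il1rl1 was called too (1.76, SE 0.33, limma adjusted p = 0.022). The stronger Cmklr1 exon region described above missed the call, with a difference of 1.75 and a limma adjusted p of 0.0528. Of the 34, 24 were intergenic, 8 intronic and 2 at promoters, 6 held a T-box motif and 10 a Runx motif.

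In the other direction, 2 regions passed at 2-fold in place of 3-fold, beside 1.02% of all regions. One was the region 23.6 kb upstream of Il12rb2, where LN IL-4+ cells exceeded lung IL-4+ cells (lung minus LN -1.37, SE 0.26, limma adjusted p = 0.0226). The other was in an intron of Dym (-1.41, SE 0.31, limma adjusted p = 0.0378). At Il12rb2, regions 8.86 kb inside the gene and 23.6 kb upstream therefore pointed in opposite directions between IL-4+ tissues, although the former was not called (1.26, SE 0.35, limma adjusted p = 0.0907).

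**Figure D5:**
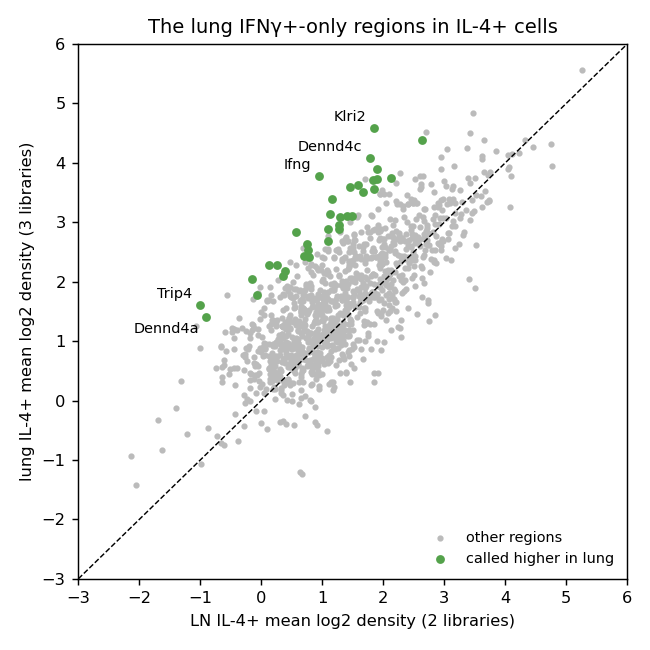
Mean log2 density of each of the 1182 IFNγ+-high regions in lung IL-4+ cells (vertical axis, 3 libraries) against LN IL-4+ cells (horizontal axis, 2 libraries), with the line of equality dashed. The 34 regions called higher in lung are marked, 5 of them by name, and 843 of the 1182 points lie above the line.

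For the contrasts that the rule used, the same fit called 367 of the 1182 regions higher in lung IFNγ+ than in lung IL-4+ cells, beside 0.387% of all regions, and 794 higher than in LN IL-4+ cells, beside 2.17%. Nothing is read from these counts. The median difference was 1.98 on the log2 scale from lung IL-4+ cells and 2.36 from LN IL-4+ cells, and both contrasts share the IFNγ+ libraries.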

How the data were processed

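The 7 ATAC-seq libraries came as 1 table of log2 density for 113820 regions in mm10 (GRCm38). The authors trimmed reads, aligned them with Bowtie2 2.3.2, marked duplicates, removed reads of low mapping quality, called MACS2 2.1.1 summits and merged them into regions, counted insertions and deposited log2 values normalized with limma 3.38.3 in R 3.5.1. Sorted values times region length nearly coincide between libraries, as after quantile normalization, which evens out global differences. Insertion counts were rebuilt here from the rank of tied values after removing region length and are lower bounds. Counts and floors cover counting error only. 0 value columns were unmapped.

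limma 3.58.1 in R 4.3.3 was fitted to all regions and libraries, with Benjamini-Hochberg adjustment, an adjusted p threshold of 0.05 and a 3-fold minimum. No filter on low values was used, so all 1182 regions were tested. On data simulated for lung IL-4+ against LN IL-4+ cells over 113820 regions, 200 regions were moved 8-fold. Of these, 68 (34%) were recovered, with 0 false calls. The simulated noise was independent between libraries and had no wide and narrow classes, so this does not measure false calls in these data. Regions were annotated with GENCODE M21 basic, and a promoter lies within 1000 bases of a protein-coding start. Motifs were searched on both strands of RefSeq GRCm38.p6 in Python 3.11.15.

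The regions, lists and tests were chosen with earlier results of these data known. Named regions were those with the 10 largest gaps, up to 2 per listed gene, the 5 largest called differences between IL-4+ tissues, 3 on each side of the gap threshold and the 10 genes nearest to most of them. Others were named after their values were seen. Alternatives covered the rule's thresholds, normalization, filters, covariates, a replicate block and leaving out each library. A region named by the rule for listed genes is not reported here.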

Additional observations from a re-analysis of the deposited data

How the results depend on the processing

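The number of IFNγ+-high regions, 1182, was 2777 at a 1.5-fold gap, 347 at 3-fold, 768 at a mean density of 10 and 5120 against the mean of the IL-4+ libraries. Against IL-4+ libraries of the narrow or the wide class alone, settings added after the data were seen, it was 3137 and 1947. Leaving out 1 library gave 1232 to 1797, the highest without lung IL-4+ replicate 1.

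Of IL-4+ cells, the 34 regions called higher in those of the lung became 11 with a pseudocount of 1. They became 9 with these 2 populations only, 65 with spread class as a covariate, 0 when tested against 3-fold and 60 at 2-fold. Apart from 2-fold, no share over all regions is given for these settings or for those that follow. The changes in count therefore cannot be read as particular to the IFNγ+-high regions. Leaving out 1 library gave 3 (lung IL-4+ replicate 2) to 73 (LN replicate 2). The 0 called higher in LN became 2 at 2-fold and was 0 to 1 with 1 library left out. The 367 called above lung IL-4+ cells became 727 with 2 populations only, 950 with array weights and 0 when tested against 3-fold, and was 0 (without either IFNγ+ library) to 656 (without LN replicate 1) with 1 library left out. The 794 called above LN IL-4+ cells became 0 against 3-fold and 43 (without IFNγ+ replicate 1) to 861.

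With the replicate block, 0 regions were called between IL-4+ tissues with lung higher, 0 called in IFNγ+ cells above lung IL-4+ cells and 226 above LN IL-4+ cells, and 0, 0 and 75 with a GC correction too. The labels tie no number to an animal or day. Same-numbered LN and lung IL-4+ libraries had correlations of -0.54 and -0.30 in their deviations, which with 2 LN libraries mirror each other and follow the spread classes, so they do not settle whether the numbers pair the samples. For the fits with the replicate block too, no share over all regions is given. Their changes in count therefore cannot be read as particular to the IFNγ+-high regions. The cause of these changes was not tested.

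The T-box share of 11.7% was 9.48% within 100 bases of the centre (1.16% of all regions), 14.2% over the whole region (3.80%) and 42.2% for the core (27.8%). The promoter share of 2.54% was 4.57% at 2 kb (22.5%). The 5 largest called differences between IL-4+ tissues kept their direction in all 19 other settings, but were not called in each. Counts and shares have no direction that could change.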
